A study of Mus musculus with 2 samples.

Results

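The 9 genes described here encode 8 integrin chains and 1 integrin ligand that govern where gut lymphocytes settle and what they hold on to: Itgae, Itgb7, Itga4, Itgb1, Itgav, Itgb3, Itgal, Itgb2 and Icam1. They were taken by symbol from the 32285 genes counted, and all 9 were found. Counts came from droplet single-cell RNA sequencing of live eGFP+ immune cells sorted from the small intestine of Il23r-eGFP mice, a knock-in strain in which the fluorescent reporter sits at the gene of the IL-23 receptor. The unstimulated group was 1 library of these cells, and the IL-23 group was 1 library of the same kind of cells after 2 hours with recombinant mouse IL-23, a cytokine that drives group 3 innate lymphoid cells (ILC3s) and type 17 T cells. Genotype, tissue, sorting gate and removal of Peyer's patches were common to both. The labels give neither the age and number of the mice nor the number of reporter alleles. They also do not say whether the unstimulated cells spent the same time in culture, and the cytokine appears in the protocol of both samples, so the groups rest on the treatment labels. With 1 library per group no difference was tested and none has a replicate check. Every interval is an exact 95% interval for counting error only, and differences are described by their size, with 1.5-fold as the mark.

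Kept were 10790 unstimulated and 9251 IL-23 cells in which 500 or more genes were seen and mitochondrial counts did not pass 10%. Their medians were 4928 and 6087 unique molecular identifiers (UMIs, counted molecules) per cell, and 2.64% and 3.25% of all their UMIs were mitochondrial. They were divided by their own transcripts. Cells without a UMI of Cd3e, Cd3d or Cd3g were called Ncr1+ (1052 unstimulated cells and 1258 after IL-23), Ccr6+ (1535 and 1464) or neither (7440 and 5802). Cells with Cd3e were called Trdc+ T (232 and 221) or Trac+ T (163 and 99), after the constant regions of the gamma delta and alpha beta T cell receptor chains. Ncr1+ cells made up 9.75% of the unstimulated and 13.6% of the IL-23 library. Ncr1 and Ccr6 are sparse transcripts, so the large class with neither may also hold cells in which the transcript was missed, at depths that differ between the libraries. All 8 ILC3 markers checked had UMIs in all 5 classes of both libraries. Neutrophil markers summed to at most 0.336 CPM (counts per 1e6 UMIs of a class) in every class, stromal markers to at most 0.336, mast cell markers to at most 1.26 and macrophage markers to between 3.44 and 14.9 CPM. B-lineage markers were uneven, at 219.5 CPM in unstimulated Ncr1+ cells against 5.35 after IL-23 and 23.2 against 266.1 in Ccr6+ cells, and leaving out B-lineage and macrophage cells moved none of the members' ratios by more than their counting error. The libraries shared 25 barcodes of kept cells, and leaving those out had no larger effect.

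Integrins are pairs of an alpha and a beta chain that span the membrane and bind ligands once signals inside the cell straighten them. Alpha 4 beta 7 (Itga4 with Itgb7) binds MAdCAM-1 on gut vessels and admits lymphocytes to the intestine, and alpha E beta 7 (Itgae with Itgb7) binds E-cadherin and holds them against the epithelium. Alpha 4 beta 1 binds VCAM-1 and fibronectin, the alpha v integrins bind vitronectin and some of them release active TGF-beta from its latent complex, and LFA-1 (Itgal with Itgb2) binds ICAM-1, which Icam1 encodes.

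On GRCm38, Itgae lies at chr11:73090583-73147446, Itgb3 at chr11:104608000-104670476, Itga4 at chr2:79255426-79333123 and Itgav at chr2:83724397-83806916, all on the plus strand. Itgb1 lies at chr8:128685654-128733200, Itgal at chr7:127296260-127335138, Itgb2 at chr10:77530252-77565708 and Icam1 at chr9:21015985-21028817 on the plus strand, and Itgb7 at chr15:102215995-102231944 on the minus strand. Annotated genes on the opposite strand overlap 4 of them: Haspin in Itgae, Cerkl in Itga4, Gm13684 and Dnmt3l-ps1 in Itgav, and Gm47079 in Icam1. Whether counting used the strand is not stated, so reads of such partners may be included. The windows of 250 bases before the RefSeq start are shown for Icam1 and Itga4, because these stood at least 1.5-fold apart between the libraries in 4 classes each, in opposite directions. Both come from RefSeq for GRCm38.p6, where 5 of the 9 genes were matched. Itgb3, counted as lower in all 5 classes, was not among them. Both windows are on the plus strand, at chr9:21015690-21015939 and chr2:79255176-79255425. Distances are counted from the RefSeq start, the base after each window, which for Icam1 is 21015940, 45 bases before the start of the gene given above, and for Itga4 is the same base. Capitals mark, in Icam1, the kB-type half-sites GGAANTTCC at 153 to 145 bases before the start and the STAT-type letters TTCNNNGAA at 42 to 34 bases before it. In Itga4 they mark the RUNX-type letters TGTGGT, read on the minus strand, at 60 to 55 bases before it.
Icam1: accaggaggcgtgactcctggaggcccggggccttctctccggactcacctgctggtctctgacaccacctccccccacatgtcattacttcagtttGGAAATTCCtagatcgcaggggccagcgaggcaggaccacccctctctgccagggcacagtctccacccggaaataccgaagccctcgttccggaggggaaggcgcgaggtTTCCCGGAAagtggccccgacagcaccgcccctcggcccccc
Itga4: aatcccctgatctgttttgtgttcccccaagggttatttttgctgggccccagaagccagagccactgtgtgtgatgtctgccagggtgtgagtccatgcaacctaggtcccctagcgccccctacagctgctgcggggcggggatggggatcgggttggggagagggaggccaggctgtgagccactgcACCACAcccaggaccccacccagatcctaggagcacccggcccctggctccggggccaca
Both strands of all 32851 RefSeq windows of this length were searched, and overlaps between motifs were allowed. The half-sites stood in 0.813% of them, the STAT letters in 7.02% and the RUNX letters in 14%. The AP-1 letters TGANTCA (6.75% of windows) and a longer NF-kB motif (3.9%) were not among the letters of either window. The motifs were chosen after these windows had been read, and a match describes letters only.

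Icam1 was the member that stood higher after IL-23. In Ncr1+ cells its level was 188 CPM (177.8 to 198.5, 1292 UMIs) unstimulated and 299.7 CPM (289 to 310.7, 2969 UMIs) after IL-23, 1.59-fold higher. In Ccr6+ cells, where it was most abundant, it went from 296 to 443.2 CPM, and this ratio of 1.497 fell just short of 1.5-fold with intervals apart. In cells with neither gene it was 199.2 CPM unstimulated and 351.2 CPM after IL-23, 1.76-fold higher. The IL-23 library thus had the higher level in each CD3-negative class, with no overlap of counting intervals. Trdc+ T cells had 78.6 CPM (65.4 to 93.6) and then 159.5 CPM (141.3 to 179.4), 2.03-fold higher. Trac+ T cells had 86.9 CPM (71.5 to 104.6) and then 193.3 CPM (166.3 to 223.6), 2.22-fold higher on 111 and 182 UMIs. By CPM the order of the classes was the same in both libraries: Ccr6+ cells, cells with neither, Ncr1+ cells, Trac+ T cells and Trdc+ T cells. The intervals of the T cell classes overlapped each other in both libraries. Those of Ncr1+ cells and cells with neither overlapped unstimulated and stood apart after IL-23. The fold from the highest to the lowest class was 3.77 unstimulated and 2.78 after IL-23. The difference in Ncr1+ cells depended on how the class was drawn: with at least 2 UMIs of Ncr1 required (310 and 405 cells) the log2 ratio was 0.34 in place of 0.67, under 1.5-fold. It was 0.54 among the 132 and 201 Ncr1+ cells that also lacked UMIs of T cell receptor chains, again under the mark.

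**Figure D1:**
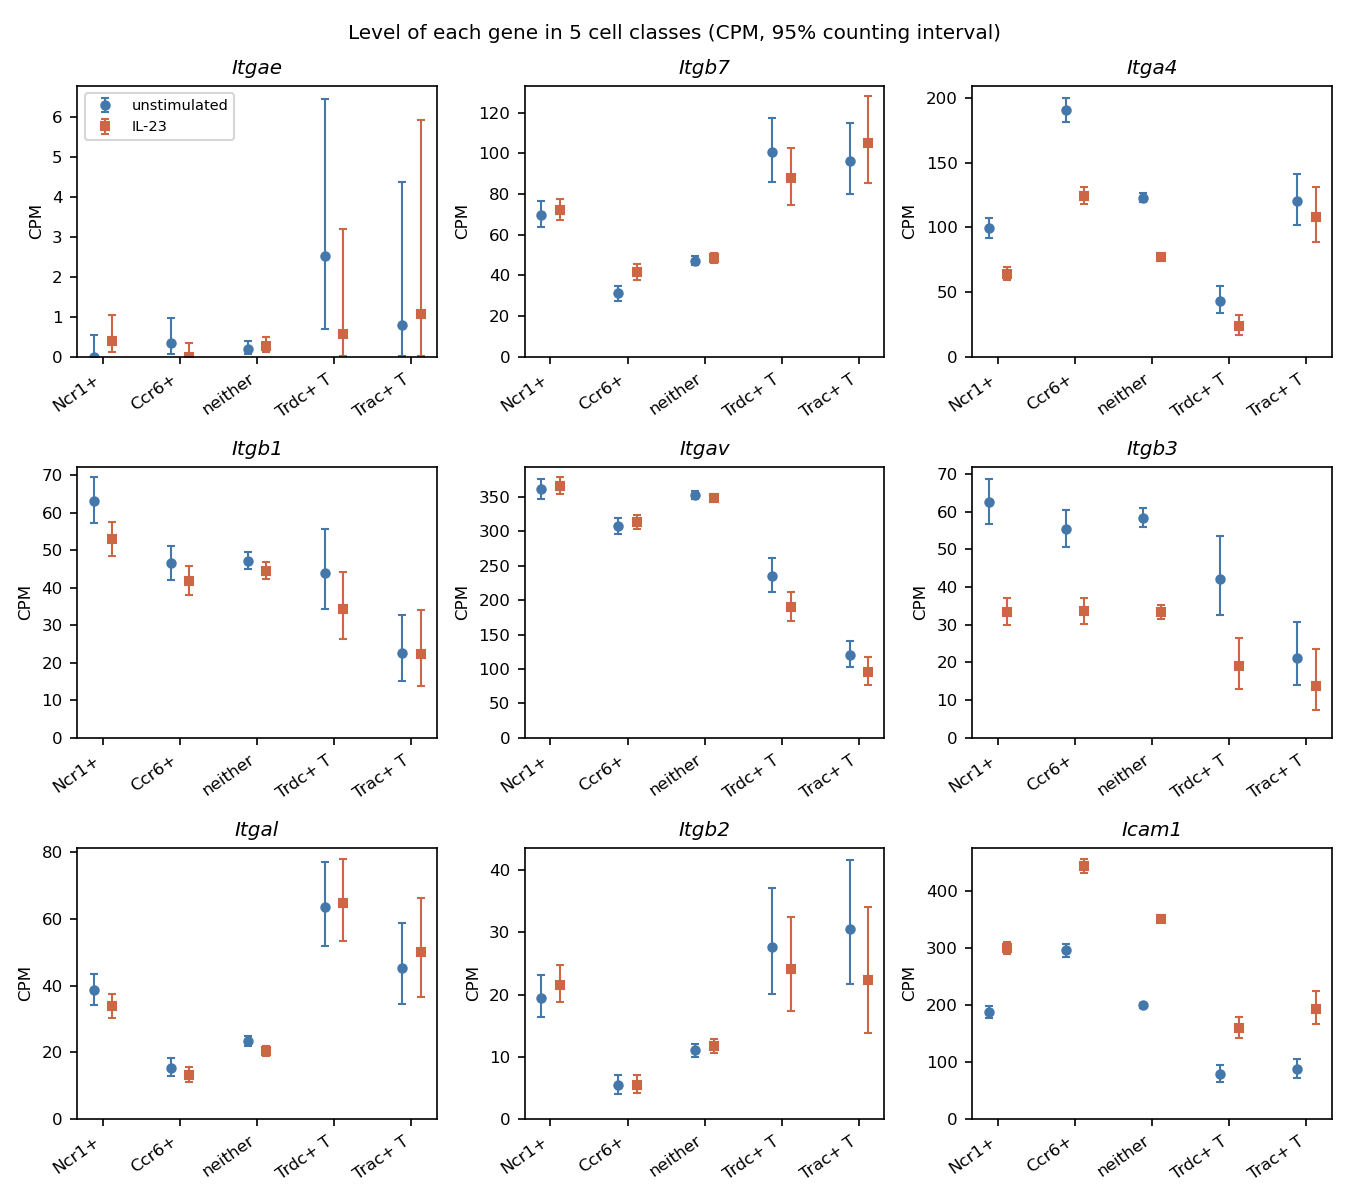
Level of each of the 9 genes in CPM (vertical axis, a scale of its own for each gene) in the 5 cell classes; circles are the unstimulated and squares the IL-23 library, and bars are exact 95% counting intervals of 1 library each. Icam1 is higher after IL-23 in all 5 classes, from 78.6 to 159.5 CPM in Trdc+ T cells and from 296 to 443.2 CPM in Ccr6+ cells, and Itgb3 is lower in all 5, with overlapping intervals in Trac+ T cells.

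The vitronectin receptor chain Itgb3, the beta chain that pairs with Itgav, stood lower after IL-23. It was 62.6 CPM (56.8 to 68.8) unstimulated and 33.3 CPM (29.8 to 37.1) after IL-23 in Ncr1+ cells, 1.88-fold lower. Ccr6+ cells had 55.4 and 33.6 CPM, 1.65-fold lower, and cells with neither had 58.4 and 33.3 CPM, 1.75-fold lower. Its level was thus nearly the same in the 3 CD3-negative classes of each library, and the libraries did not overlap. In Trdc+ T cells it was 42.1 CPM (32.7 to 53.5, 67 UMIs) and then 18.9 CPM (13.0 to 26.6, 33 UMIs), 2.21-fold lower. In Trac+ T cells it was 21.1 and then 13.8 CPM, on 27 and 13 UMIs, and these intervals overlapped. That last ratio, 1.5-fold, ranged in log2 from -0.95 to -0.24 over 12 other settings.

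Its partner Itgav had no such difference in the CD3-negative classes. Ncr1+ cells had 361 CPM unstimulated and 366.5 CPM after IL-23, Ccr6+ cells 308 and 314 CPM, and cells with neither 353 and 348 CPM, with overlapping intervals each time. Trdc+ T cells had 236 CPM (212.5 to 260.9) and then 190.4 CPM (170.5 to 212.1), a log2 ratio of -0.31 with intervals that just missed each other. Trac+ T cells were lowest at 120.5 and 95.6 CPM. From the highest class to the lowest, Itgav spanned 2.997-fold unstimulated and 3.83-fold after IL-23, in the same order of all 5 classes. Neighbours in this order had intervals apart, except Ncr1+ cells and cells with neither unstimulated.

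Itga4, the chain shared by the receptors for MAdCAM-1 and VCAM-1, was most abundant in Ccr6+ cells and lower after IL-23 in 4 classes. It was 190.8 CPM (181.8 to 200.1) unstimulated and 124.4 CPM (117.9 to 131.3) after IL-23 in Ccr6+ cells, 1.53-fold lower. In Ncr1+ cells it was 99.4 and 64.0 CPM, 1.55-fold lower, and in cells with neither 122.9 and 77.2 CPM, 1.59-fold lower. These 3 differences had intervals apart but lay close to the 1.5-fold mark. Scaling by TMM, which sets the bulk of genes level between libraries and moved the median log2 ratio of all measured genes up by 0.134, 0.114 and 0.0948 in the Ncr1+, Ccr6+ and neither classes, left them at -0.50, -0.50 and -0.58, under the mark. Trdc+ T cells had the least Itga4, 43.4 CPM (33.8 to 54.9) and then 23.5 CPM (16.9 to 31.9), 1.84-fold lower. Without the 5% of cells with the most UMIs that log2 ratio was -0.41 in place of -0.88. Of its 69 unstimulated UMIs in this class 14 came from 1 cell. Trac+ T cells had 120.5 CPM and then 108.4 CPM, with overlapping intervals, and they ranked the third among the classes unstimulated, level with cells with neither, and the second after IL-23, with an interval that overlapped that of Ccr6+ cells.

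Itgb7, the beta chain of both gut integrins, was highest in the T cell classes, at 100.6 CPM in Trdc+ T and 96.3 CPM in Trac+ T cells unstimulated, then 69.8 CPM in Ncr1+ cells, 47.0 CPM in cells with neither and 31.1 CPM (27.54 to 34.97) in Ccr6+ cells. Trdc+ T cells thus had 3.24-fold the Itgb7 level of unstimulated Ccr6+ cells, while Ccr6+ cells had 4.40-fold their Itga4 level. Unstimulated Trac+ T cells stood high in both genes, the second in Itgb7 and level with cells with neither in Itga4. After IL-23, Itgb7 was 41.6 CPM (37.9 to 45.6) in Ccr6+ cells, 1.34-fold higher with intervals apart. It was 72.2 CPM in Ncr1+ cells, 48.45 CPM in cells with neither, 87.8 CPM in Trdc+ T and 105.2 CPM in Trac+ T cells, with intervals that overlapped the unstimulated ones.

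Itgae, the partner of Itgb7 in the E-cadherin receptor, was close to 0 in every class. All kept cells together had 15 UMIs of it unstimulated and 17 after IL-23. Ncr1+ cells had 0 UMIs unstimulated, which allows a level of up to 0.436 CPM, and 4 after IL-23, while Ccr6+ cells had 3 and 0. Trdc+ T cells had 4 and 1 and Trac+ T cells 1 and 1. The unstimulated Trdc+ T level, 2.515 CPM (0.685 to 6.44), lay above the intervals of Ncr1+ cells and of cells with neither. It rested on 4 UMIs in 2 cells, and after IL-23 the intervals of all classes overlapped. The gene was too low to count as measured (at least 10 CPM in 1 library and 20 UMIs over both).

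Itgb1, the beta chain of the VCAM-1 and fibronectin receptor, was highest in Ncr1+ cells, at 63.1 CPM (57.3 to 69.4) unstimulated and 52.9 CPM (48.5 to 57.6) after IL-23. Ccr6+ cells had 46.5 and 41.7 CPM, cells with neither 47.1 and 44.4 CPM, Trdc+ T cells 44.0 and 34.4 CPM and Trac+ T cells 22.7 and 22.3 CPM. The intervals of the libraries overlapped in all 5 classes. By CPM the order of the classes was the same in both libraries, though several ranks could not be told apart. Cells with neither, Ccr6+ cells and Trdc+ T cells overlapped in each library, and Trdc+ T and Trac+ T cells after IL-23.

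By CPM the LFA-1 chains were highest in the T cell classes. Only Itgal in Trdc+ T cells had intervals apart from those of Ncr1+ cells, in both libraries. For Itgal in Trac+ T cells and for Itgb2 in both T cell classes they overlapped. Itgal was 63.5 CPM in unstimulated Trdc+ T and 45.4 CPM in Trac+ T cells, 38.6 CPM in Ncr1+ cells, 23.3 CPM in cells with neither and 15.3 CPM in Ccr6+ cells. After IL-23 the same classes had 64.8, 49.9, 33.7, 20.3 and 13.1 CPM. Itgb2 was 27.7 CPM in unstimulated Trdc+ T, 30.5 CPM in Trac+ T, 19.5 CPM in Ncr1+, 11 CPM in neither and 5.37 CPM in Ccr6+ cells, and 24.1, 22.3, 21.6, 11.7 and 5.46 CPM after IL-23. No class differed between libraries beyond the counting intervals for either chain, and Itgb2 in Ccr6+ cells was too low to count as measured. LFA-1 transcripts and their ligand's transcript thus had opposite orders: Ccr6+ cells had the lowest Itgal and Itgb2 and the highest Icam1 in both libraries, with Icam1 there 3.41-fold its unstimulated Trac+ T level and Itgb2 5.69-fold lower than in those T cells.

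Counted by size, Icam1 was at least 1.5-fold higher and Itga4 and Itgb3 at least 1.5-fold lower in Ncr1+ cells (1 higher and 2 lower of 8 measured members), where 5.18% of all 6890 measured genes were that much higher and 7.26% that much lower. In Ccr6+ cells 0 of 7 were higher and 2 lower, against 2.87% and 4.32% of 7108 genes. In cells with neither it was 1 and 2 of 8, against 4.09% and 3.89% of 6967 genes. In Trdc+ T cells it was 1 and 2 of 8, against 8.01% and 10.6% of 7480 genes, and in Trac+ T cells 1 and 1 of 8, against 7.83% and 12.2% of 7468 genes. Icam1, Itga4 and Itgb3 made up all of these counts. The median log2 ratio of the measured members was -0.09, -0.16, -0.05, -0.25 and -0.08 in these 5 classes, beside -0.12, -0.11, -0.11, -0.06 and -0.07 for all measured genes. Under TMM scaling Icam1 in Ccr6+ cells passed the mark at a log2 ratio of 0.70, and Itgb3 in Trac+ T cells fell under it at -0.51.

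**Figure D2:**
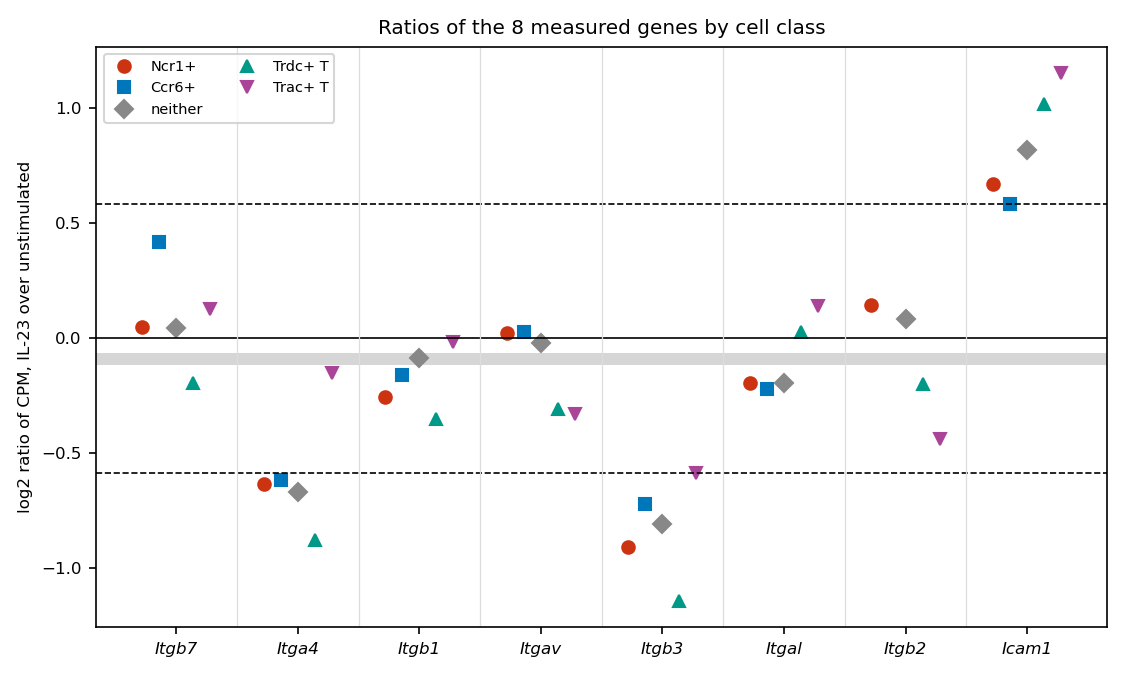
Log2 ratio of CPM, IL-23 over unstimulated (vertical axis), of the 8 measured genes in the 5 cell classes (symbols); dashed lines mark 1.5-fold and the grey band spans the 5 classes' medians over all measured genes. Icam1 lies above the upper line in 4 classes, up to 1.15 in Trac+ T cells, and just under it at 0.58 in Ccr6+ cells, Itgb3 lies at or below the lower line in all 5 classes and Itga4 below it in 4.

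Shares of cells with a UMI were compared at equal depth. Each cell was thinned to 2500 UMIs, which left out 464 unstimulated and 410 IL-23 cells of the class with neither and at most 32 cells of any other class and library. Icam1 was then seen in 27.6% of unstimulated Ncr1+ cells and 40.9% after IL-23 (45.2% and 63.7% before thinning), in 46.9% and 59.3% of Ccr6+ cells (65.9% and 80.5%) and in 31.3% and 46.4% of cells with neither (43.2% and 63.9%). It was seen in 12.5% (8.53 to 17.4) and 23.96% (18.4 to 30.2) of Trdc+ T cells (28.0% and 41.2% before thinning), and in 16.4% and 25.5% of Trac+ T cells (26.4% and 49.5%), where the intervals overlapped. Free RNA can put UMIs in cells that do not express a gene. B-lineage cells, set apart by their markers, had Icam1 in 2 of 19 unstimulated and 0 of 8 IL-23 cells at the same depth. Their median depths before thinning were 8697 and 6846.5 UMIs. Whether B-lineage cells express Icam1 themselves was not tested, so these shares do not measure free RNA alone. Their unstimulated level before thinning was 58.9 CPM (33.6 to 95.6), which overlapped the intervals of Trdc+ T and Trac+ T cells. Unstimulated T cells were thus not set apart from this reference. After IL-23 it had 31.8 CPM (6.55 to 92.8) on 3 UMIs, below the intervals of both T cell classes. Among thinned cells with a UMI, the mean number was 1.60 and 1.75 in Ncr1+ cells and 1.67 and 1.95 in Ccr6+ cells, so both the share of cells and the UMIs per positive cell were higher after IL-23.

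Itgb3 was seen in 13.6% and 7.31% of thinned Ncr1+ cells (29.6% and 20.7% before thinning), in 11.9% and 7.26% of Ccr6+ cells (23.8% and 18.6%) and in 12.6% and 7.75% of cells with neither (22.3% and 16.1%), all with intervals apart. In Trdc+ T cells it was 9.05% and 3.69% with overlapping intervals. Itga4 was seen in 17.8% and 12.1% of Ncr1+ cells (36.8% and 27.8% before thinning), 33.1% and 24.4% of Ccr6+ cells (53.8% and 48.3%) and 22.5% and 16.5% of cells with neither (35.4% and 29.1%), again apart. Trdc+ T cells, whose Itga4 level was 1.84-fold lower after IL-23, had it in 4.31% (2.09 to 7.78) and 2.30% (0.752 to 5.30) of thinned cells, with overlapping intervals, and in 10.3% and 9.96% before thinning, so the share did not repeat that difference. Trac+ T cells had Itga4 in 18.9% and 23.5%, with wide overlap. The B-lineage cells had Itgb3 in 0 of 19 and 1 of 8 cells and Itga4, which B cells also express, in 6 of 19 and 1 of 8. No other member's share stood apart between the libraries in any class after thinning.

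**Figure D3:**
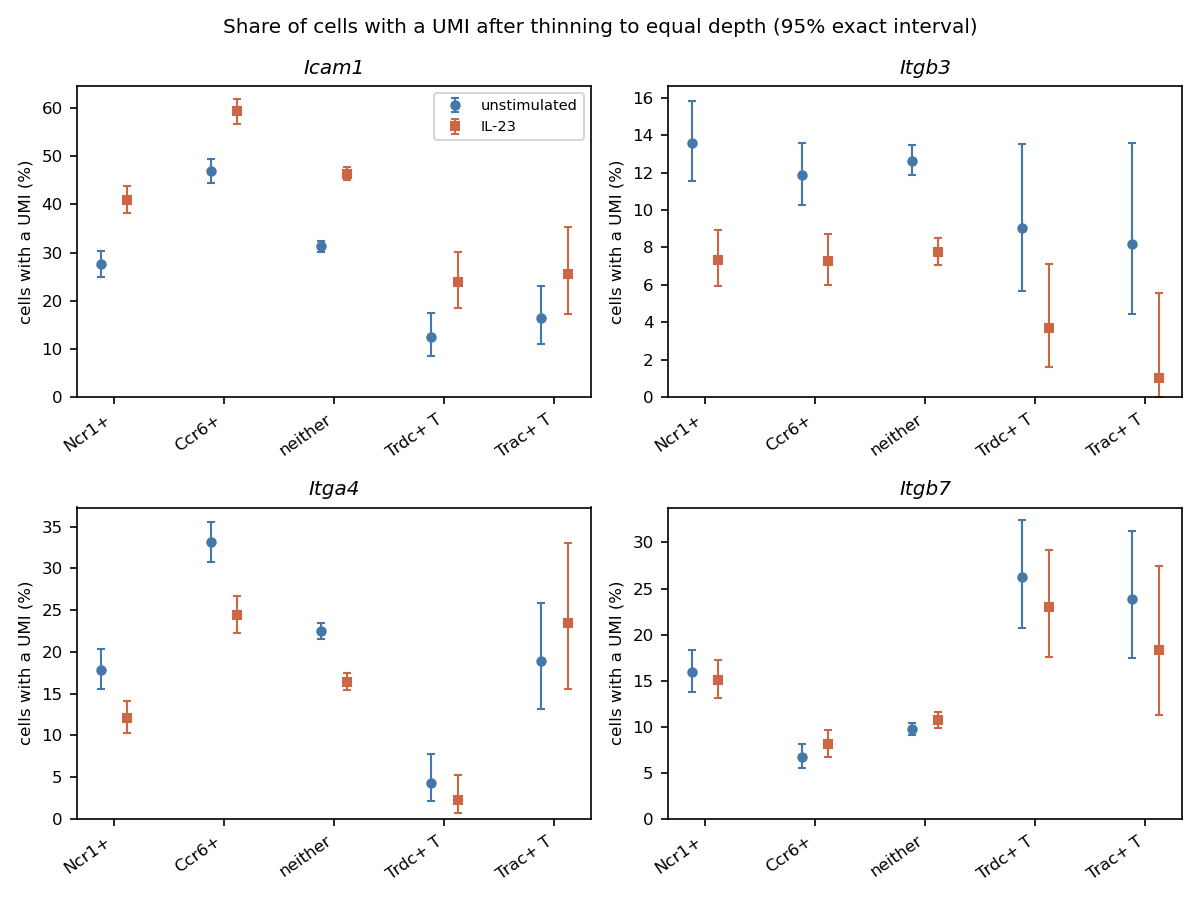
Percentage of cells with at least 1 UMI after each cell was thinned to 2500 UMIs (vertical axis), for Icam1, Itgb3, Itga4 and Itgb7 in the 5 classes; circles are the unstimulated and squares the IL-23 library, with exact binomial 95% intervals. Icam1 is seen in more cells after IL-23, 46.9% and 59.3% in Ccr6+ cells, and Itgb3 and Itga4 in fewer cells of the 3 CD3-negative classes.

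Both chains of an integrin were seldom read in the same thinned cell, and mostly at the rate that the chains' own shares would give. Itgav with Itgb3 was seen in 8.10% (6.51 to 9.93) of unstimulated Ncr1+ cells, where the product of the single shares was 7.33%, and in 4.22% after IL-23, where it was 4.30%. Itga4 with Itgb7 was seen in 1.46% (0.916 to 2.20) of unstimulated Ccr6+ cells, just under the product of 2.22%. Itgal with Itgb2 was seen in 0.812% (0.390 to 1.49) of IL-23 Ncr1+ cells, above the product of 0.343%. Of 60 combinations of 6 pairs, 5 classes and 2 libraries, 4 had an interval that left out the product, and that count was 0 at 1500 UMIs and 2 at 4000. Cells in these shares were read sparsely, so a missing UMI does not mean a missing chain.

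Within the classes, finer divisions moved the levels of the same genes. Among Ncr1+ cells, those with a UMI of Tbx21, the gene of the type 1 factor T-bet, had 239 CPM of Icam1 (209 to 271, 127 cells) unstimulated and 482 CPM (444 to 521, 143 cells) after IL-23. Those without it had 180 and 273 CPM, so the Tbx21+ cells were higher in both libraries with intervals apart. Itgb3 was 71.2 and 58.6 CPM in the Tbx21+ cells, with overlapping intervals, and 61.1 and 29.6 CPM in the others, with intervals apart. Itga4 ran the other way, 75.2 CPM in unstimulated Tbx21+ and 103.4 CPM in Tbx21- cells, with intervals that just missed each other, but after IL-23 it was 56.3 CPM (44.0 to 70.9) and 65.1 CPM (59.9 to 70.8), with overlap. Whether the libraries differ more in either subset was not tested.

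Among Ccr6+ cells, those with H2-Ab1, a chain of MHC class II, had more Icam1 than those without, 334 against 273 CPM unstimulated and 471 against 424 CPM after IL-23. Ccr6+ cells with Cd4 had 41.9 and 52.3 CPM of Itgb7 against 28.9 and 38.8 CPM in those without, with intervals that overlapped unstimulated and stood apart after IL-23. Their Icam1 after IL-23 was lower, 391.5 against 457 CPM, while unstimulated it was 289.6 against 297.3 CPM. In Trdc+ T cells Itga4 was 52.1 CPM with Trdv4 and 27.9 CPM without it unstimulated, and 22.2 and 25.4 CPM after IL-23, with overlapping intervals in each library. In Trac+ T cells Itgav was 151.6 CPM with Cd4 and 86.1 CPM with neither Cd4 nor Cd8a unstimulated, with intervals apart, and 109.6 and 77.2 CPM after IL-23, with overlap. Only 3 and 1 Trac+ T cells had Cd8a, too few for a value.

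**Figure D4:**
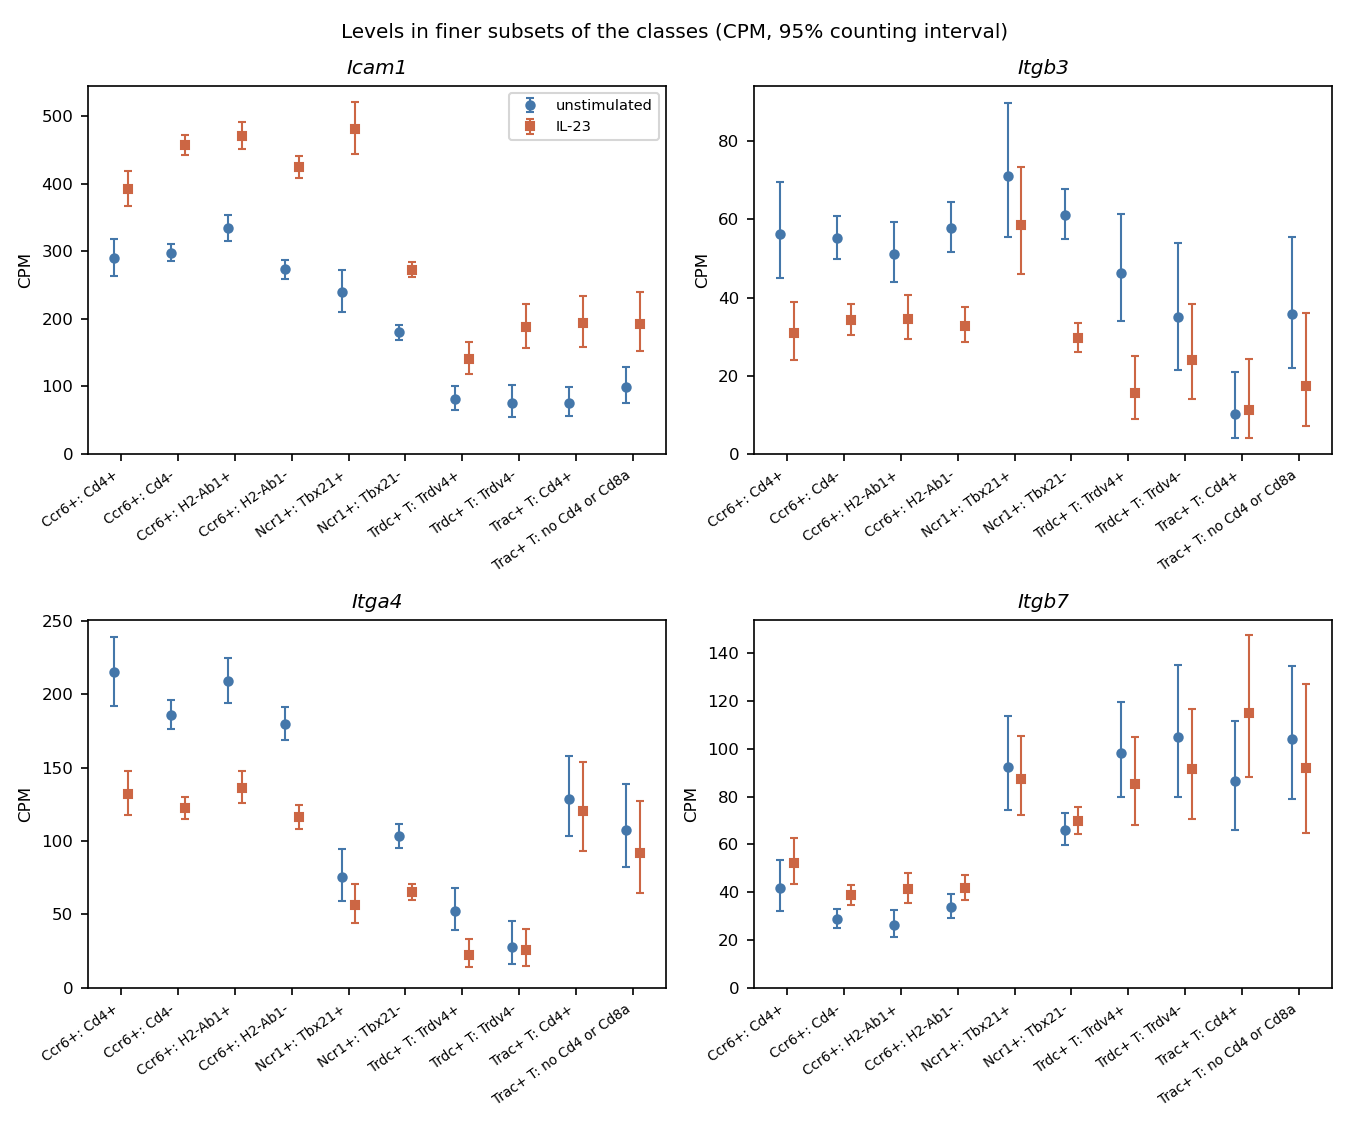
CPM of Icam1, Itgb3, Itga4 and Itgb7 (vertical axis) in finer subsets of 4 classes, named by the class and by the gene with or without a UMI; circles are the unstimulated and squares the IL-23 library, with exact 95% counting intervals. Tbx21+ cells of the Ncr1+ class reach 482 CPM of Icam1 after IL-23 against 273 CPM in Tbx21- cells, and keep overlapping Itgb3 intervals at 71.2 and 58.6 CPM.

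For each member the genes with the most similar pattern were ranked over the 10 sums of 5 classes and 2 libraries, among 5967 genes, by Pearson's r of log2(CPM + 5). These 10 sums share 2 libraries, and the values are a description. Icam1 was most like Eif6, a ribosome assembly factor (r = 0.97), and Pfkfb3, a regulator of glycolysis (r = 0.96). Itgb7 was most like Ets1, a lymphocyte transcription factor (r = 0.98), and Sh2d2a, an adaptor of T cells (r = 0.97). Itgav was most like St3gal3, a sialyltransferase, and Gpr65, a proton-sensing receptor (r = 0.99 for both), and Itga4 most like Fam76b and Trim24 (r = 0.98 for both). The others were Arhgap17 and Mef2a for Itgb1, Pcyt1a and Snrk for Itgb3, Arl5a and 1700012B07Rik for Itgal, and Uqcrh and Gm19585 for Itgb2, with r between 0.97 and 1.00.

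The rest of the adhesion machinery was read from 4 lists. Of 18 other integrin subunits only 1 or 2 were measured in any class. Itga1, the collagen receptor chain, went from 11.5 to 21.3 CPM in Ncr1+ cells, 1.85-fold higher, and from 7.70 to 14.8 CPM in cells with neither, 1.92-fold higher. Itga5, the fibronectin receptor chain, was 18.6 and then 12.1 CPM in Ccr6+ cells, and Itga6 had 15 and 7 UMIs in Trac+ T cells, both counted as lower. Under TMM scaling neither reached the mark, at log2 ratios of -0.50 and -0.53. Of all measured genes, 5.18% in Ncr1+ cells and 4.09% in cells with neither were at least 1.5-fold higher. At least 1.5-fold lower were 4.32% in Ccr6+ and 12.2% in Trac+ T cells. Of the ligands and counter-receptors 5 to 7 of 17 found were measured. Their median log2 ratio was 0.12, 0.01, 0.14, -0.34 and 0.05 in the order of classes above. None was at least 1.5-fold higher, beside 5.18%, 2.87%, 4.09%, 8.01% and 7.83% of all measured genes in that order. Lower was 1 of 5 in Ccr6+ and 1 of 7 in Trdc+ T cells (Plaur, the urokinase receptor). In Trac+ T cells it was 1 of 5 (Jaml, a junctional adhesion receptor). Of all measured genes, 4.32%, 10.6% and 12.2% were that much lower in these classes. A single gene of so few measured is no result about the list. Plaur was 28.9 and then 18.7 CPM in Ccr6+ cells, a log2 ratio that TMM scaling took from -0.63 to -0.51, under the mark, and had 25 and 4 UMIs in Trdc+ T cells. The TGF-beta gene Tgfb1, whose product some alpha v integrins free, was 250.9 CPM unstimulated and 299.7 CPM after IL-23 in Ncr1+ cells, under the mark.

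Of 33 genes of integrin activation and adaptors 28 to 30 were measured, and most lay within 1.5-fold: 26 of 28 in Ncr1+ cells, 27 of 30 in Ccr6+ cells, 26 of 28 in cells with neither, 23 of 30 in Trdc+ T and 27 of 29 in Trac+ T cells. Their median log2 ratio was -0.10, -0.11, -0.10, -0.07 and -0.13, beside the medians of all measured genes above. In that order 1, 1, 1, 2 and 0 were higher, beside 5.18%, 2.87%, 4.09%, 8.01% and 7.83% of all measured genes, and 1, 2, 1, 5 and 2 were lower, beside 7.26%, 4.32%, 3.89%, 10.6% and 12.2%. Most of these counts are near or under the shares over all genes. Cyth1, a guanine exchange factor that acts on the LFA-1 beta chain, was the gene counted as lower in all 5 classes. Its level was 278.3 and then 178.2 CPM in Ncr1+ cells, 175.0 and 112.9 CPM in Ccr6+ cells and 222 and 144.2 CPM in cells with neither, from 1.51-fold to 1.56-fold lower over the classes. That is close to the mark, and TMM scaling put Cyth1 under it in all 5 classes, at log2 ratios from -0.54 to -0.51. Under that scaling Spn, described with the adhesion genes below, was the 1 gene of the 4 lists still counted as lower in each of the Ncr1+, Ccr6+ and neither classes. Cytip, a partner of Cyth1 that restrains adhesion, was 332.9 CPM unstimulated and 602.8 CPM after IL-23 in Ccr6+ cells, 1.81-fold higher, and 1.13-fold to 1.40-fold higher in the other classes. Skap2, an adaptor of integrin activation, was 1.88-fold higher in Ncr1+, 1.54-fold in neither and 1.86-fold in Trdc+ T cells, the last on 14 and 29 UMIs. Zyx, an actin regulator at adhesion sites, was 2.01-fold higher in Trdc+ T cells, and there Fyb and Stk4, which carry receptor signals to LFA-1, were 1.62-fold and 1.63-fold lower. Another gene counted as lower there, Actn1, had 19 and 1 UMIs. The core activators Tln1 (talin) and Fermt3 (kindlin-3) stayed within 1.5-fold in all 5 classes.

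Of 26 selectin and other adhesion genes 11 to 14 were measured, with median log2 ratios of 0.12, 0.10, 0.13, 0.13 and -0.21 in the 5 classes in the order above. At least 1.5-fold higher were 2, 1, 2, 3 and 1 of them, beside 5.18%, 2.87%, 4.09%, 8.01% and 7.83% of all measured genes, and lower were 1, 1, 1, 2 and 1, beside 7.26%, 4.32%, 3.89%, 10.6% and 12.2%. The single gene in each direction in Trac+ T cells, of 14 measured, is near or under those shares. Cd226, a receptor that joins LFA-1 at cell contacts, was higher after IL-23 in 4 classes, from 38.0 to 92.9 CPM in Ncr1+ cells (2.44-fold), 15.3 to 27.1 CPM in Ccr6+ cells (1.77-fold), 28.3 to 63.2 CPM in cells with neither (2.23-fold) and 135.2 to 217.4 CPM in Trdc+ T cells (1.61-fold). Trac+ T cells had 115.8 and 112.6 CPM of it. Its ligand Pvr was 28.8 and then 59.5 CPM in Ncr1+ cells (2.06-fold), and 1.74-fold higher in neither and 2.33-fold in Trdc+ T cells. Spn (CD43), a sialomucin that can hinder contact, was lower in 4 classes, 213 and then 93.2 CPM in Ncr1+ cells, 183.6 and 111.2 CPM in Ccr6+ cells, 179.3 and 87.0 CPM in cells with neither and 113.8 and 48.2 CPM in Trdc+ T cells. In Trac+ T cells Cd2, a T cell adhesion receptor, was 1.66-fold higher and Cd6, which binds ALCAM, 1.55-fold lower (under the mark with TMM scaling, at a log2 ratio of -0.56), and the tetraspanin Cd9 was 1.69-fold lower in Trdc+ T cells. Proliferation markers also differed in Trac+ T cells, at 100.9 and 192.3 CPM summed, and their part in those values was not tested.

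**Figure D5:**
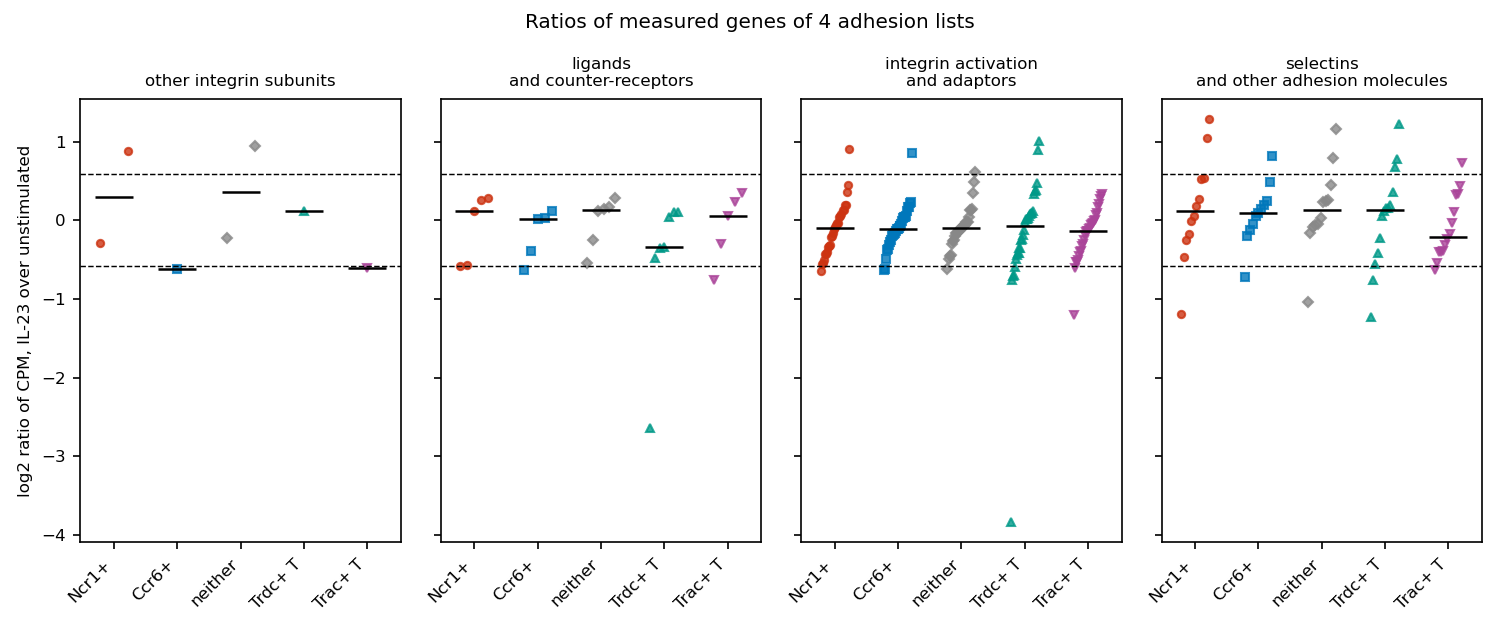
Log2 ratio of CPM, IL-23 over unstimulated (vertical axis), of each measured gene of the 4 adhesion lists in the 5 classes; short bars are the list's median and dashed lines mark 1.5-fold. Most genes lie between the lines, and the lowest points, in Trdc+ T cells, rest on few UMIs, such as Plaur with 25 and 4.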

How the data were processed

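Per the labels, droplet libraries (10x Genomics) of sorted cells were made, 1 per group. The authors' deposited values are whole UMI counts per gene and barcode, not normalized. Per the submitters' processing notes the build was mm10. Those notes name Cell Ranger 3.1.0, and the matrices' own file headers name cellranger 6.0.0. The sources used here do not give the annotation, the use of strand or the cell calling. Feature tables, barcodes and symbols were used as deposited.

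Kept cells held 58148889 and 61359895 UMIs. UMIs were summed per class and library and scaled to CPM, so levels of different genes were not compared. Log2 ratios had 0.5 UMI added to each sum. A gene was measured with at least 10 CPM in 1 library and 20 UMIs over both. Cells with both class genes were left out of the classes (48 and 59 with Ncr1 and Ccr6, 23 and 13 with Trdc and Trac), and no doublet caller was run. Sums carry exact Poisson and shares exact binomial (Clopper-Pearson) 95% intervals, for counting error only. No p-value was computed. A count of 0 was given a limit of 3 counts. Subsets under 20 cells got no value.

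The members, classes and gene lists were chosen with earlier results of these data known. Itga1, Itga5, Itga6, Actn1, Tgfb1, Tln1 and Fermt3 are named after their values had been seen. Otherwise the text names all members, and from each list up to 6 measured genes with at least 25 CPM in 1 library and a 1.5-fold ratio in a class, by largest ratio. Marker checks used 15 lists. Positions come from GENCODE for GRCm38, promoter windows from RefSeq. Alternatives covered filters, class rules, scaling (TMM, edgeR 4.0.16), fold, and thinning. Python 3.11.15, numpy 2.4.6, scipy 1.17.1, pandas 2.3.3 and R 4.3.3 were used.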

Additional observations from a re-analysis of the deposited data

How the results depend on the processing

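No paired analysis was possible because each group is 1 library. The alternatives covered other filters on cells, class rules, scalings, folds and depths, and 1 of them, leaving out barcodes found in both libraries, was chosen after seeing the data. Over 12 settings no ratio of Icam1, Itgb3 or Itga4 that reached 1.5-fold changed its sign. Requiring that CD3-negative cells also lack UMIs of T cell receptor chains left 132 and 201 Ncr1+ cells, and log2 ratios in Ncr1+ cells were then -1.30 for Itga4, -1.39 for Itgb3 and 0.54 for Icam1; Itga4 was -0.51 in Ccr6+ cells, and Itga4, Itgb3 and Icam1 were -0.60, -0.66 and 0.65 in cells with neither, with 1 member lower in Ccr6+ cells. With 2 UMIs of the class gene, Icam1 in Ncr1+ cells was 0.34, and the members counted were 0 higher in Ncr1+, 1 higher in Ccr6+ and 0 lower in Trac+ T cells. Under TMM scaling, Icam1 was 0.81 in Ncr1+ and 0.91 in neither, Itga4 -0.50 in Ccr6+ and -0.58 in neither; members lower were 1 each in Ncr1+, Ccr6+ and neither and 0 in Trac+ T, 1 was higher in Ccr6+, and pathway genes were 7 higher in Ncr1+ and 1, 1, 1 and 2 lower in Ncr1+, Ccr6+, neither and Trac+ T. Without the 5% of cells with the most UMIs, Icam1 in Trac+ T was 1.52, and 1 member was lower in Trdc+ T and 2 in Trac+ T. Icam1 in Ccr6+ passed the mark (1 member higher) with at most 5% mitochondrial counts, without B-lineage and macrophage cells, and with totals without the 20 highest genes; members lower in Trac+ T were 0 under the first and the last of these. Averaging per-cell CPM left 1 lower in Ccr6+ cells. The cause of these moves was not tested.

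At a fold of 2, members were 0 higher in Ncr1+ and neither, and 0, 0, 0, 1 and 0 lower in Ncr1+, Ccr6+, neither, Trdc+ T and Trac+ T; pathway genes were 2, 0, 1, 2 and 0 higher and 1, 0, 1, 3 and 1 lower. At a fold of 1.3, 2 members were higher in Ccr6+ and 2 lower in Trac+ T. With no filter on low counts, 2 members were higher in Ncr1+. Pathway genes were then 15, 11, 16, 19 and 13 higher and 13, 10, 11, 13 and 15 lower in the 5 classes. For these settings and those of the paragraph above, the share of all genes past the same fold is not given. The counts therefore show only how the calls move with the setting. Members whose share was higher with intervals apart were 2, 3 and 4 in Ncr1+, Ccr6+ and neither and 1 in Trac+ T without thinning, and 1 in Trac+ T at 1500 UMIs; at 4000 UMIs they were 0 in Trdc+ T, with lower shares in 4 of neither and 1 of Trdc+ T, and 1 lower in Trdc+ T without thinning. Without thinning, cells of the IL-23 library were deeper, at a median of 6087 against 4928 UMIs. The share of all genes that stand apart in the same way is not given. These counts therefore describe the setting and not the members. Pairs away from the product numbered 0 at 1500 and 2 at 4000 UMIs. Depth limits Itgae, Itgb2 in Ccr6+ cells and the Trac+ T class, whose Itgb3 rests on 27 and 13 UMIs.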
